A study of Mus musculus with 4 samples.

Results

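The insulin-like growth factor (IGF) axis was described in single cells of mouse lower limb vessels through 9 genes, which were fixed by name. They were the ligands *Igf1* and *Igf2*, the receptor *Igf1r*, and the binding proteins *Igfbp2*, *Igfbp3*, *Igfbp4*, *Igfbp5*, *Igfbp6* and *Igfbp7*, and they stood among 30406 genes that all 4 libraries listed. Each library pooled 3 mice on a C57BL/6J background, and held cells dissociated from the popliteal lymphatic vessels and the superficial saphenous veins. The tdTomato 1 and tdTomato 2 libraries came from *Cspg4*-Cre;Ai9-tdTomato mice over 8 months old, in which the *Cspg4* promoter drives a Cre that switches on a red reporter, and only reporter-positive cells were sorted. Male mice labelled as 9 months old gave the WT and the TNF-Tg library, whose live cells of high scatter were sorted with no reporter. For the tdTomato libraries the study names male and female *Cspg4*-Cre mice in the cross, and the sex of the pooled offspring is not stated. TNF-Tg mice carry a human tumor necrosis factor transgene and develop inflammatory arthritis. WT and TNF-Tg were 1 library each, so that genotype, pool of mice and library cannot be told apart, and the 2 tdTomato libraries were the only labelled replicates.

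IGF ligands act through the IGF-1 receptor, a tyrosine kinase on the cell surface. Most IGF in tissue fluid is held by secreted binding proteins, which can restrain the ligand, store it in matrix or carry it to cells, and proteases release it by cutting them. Growth hormone drives *Igf1* in liver, whereas stromal cells and resident macrophages are known as local sources in other tissues. IGFBP-5 and IGFBP-3 bind IGFs tightly and attach to matrix, IGFBP-6 prefers IGF-2, and IGFBP-7 binds IGFs weakly and is a matrix protein of vessel walls.

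Cells were assigned to classes by marker lists that held none of the 9 genes. LMC-type stroma is named for lymphatic muscle cells (markers such as *Pi16*, *Dpp4* and *Col14a1*) and VSMC-type stroma for vascular smooth muscle cells (*Cxcl14*, *Mgp*, *Gdf10*). Of 10837 cells, 2795 were LMC-type stroma, 1200 were VSMC-type stroma, 1640 were *Lyve1* resident macrophages and 296 were *Ccr2* macrophages rich in MHC class II. The marker lists were drawn from these same samples by the study, so the classes are not independent of the data. The names went against the contractile markers: *Acta2* reached at most 5.11 CPM (UMIs per 1000000 UMIs of the summed cells of a class in 1 library) and *Cnn1* at most 0.0428 in either stromal class, and 7 contractile mural genes summed to between 3.92 and 40.5 CPM, whereas 8 stromal genes such as *Pdgfra* and *Dcn* summed to between 25233 and 49361 CPM. LMC-type and VSMC-type are therefore used only as names of marker lists. Leukocyte markers summed to at most 43.2 CPM in these classes. The gates required high stromal and low leukocyte sums, so neither sum is separate support for what the cells are. The LMC-type class held 703, 95, 1448 and 549 cells in tdTomato 1, tdTomato 2, WT and TNF-Tg, and the VSMC-type class held 170, 98, 542 and 390. A further 132, 49, 207 and 171 stromal cells lay between the classes. Of all 1005, 242, 2197 and 1110 stromal cells, 123, 49, 221 and 161 lay near a class limit, on either side of it.

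Libraries held between 2357031 and 68773605 unique molecular identifiers (UMIs, each a counted transcript). In tdTomato 1, 34.3% of cells had over 10% mitochondrial UMIs, against 0.220% to 4.59% in the others, and its gene list differed from theirs. Between 0 and 5 cell barcodes were shared by any pair of libraries. A level is given in CPM, in the order tdTomato 1, tdTomato 2, WT, TNF-Tg, and levels are compared within a gene only. Intervals are 95% and cover counting error only.

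The promoters of 4 genes are shown because they stand for the main patterns: *Igf1* and *Igfbp4*, which were held by stroma and *Lyve1* macrophages alike, and *Igfbp5* and *Igfbp7*, which were stromal and leaned to opposite classes. Each run covers 250 bases before to 50 after a RefSeq start (GRCm38.p6), on the gene's strand. Capitals mark every match, on either strand, to TATAAA, known as the TATA box, to GGGCGG, the GC box, or to GAGGAA (the core bound by PU.1 and other ETS factors). They also mark TGANTCA, where N is any base, a pattern that takes in the AP-1 site and is broader than it.
Igf1, chr10:87860861-87861160, plus strand: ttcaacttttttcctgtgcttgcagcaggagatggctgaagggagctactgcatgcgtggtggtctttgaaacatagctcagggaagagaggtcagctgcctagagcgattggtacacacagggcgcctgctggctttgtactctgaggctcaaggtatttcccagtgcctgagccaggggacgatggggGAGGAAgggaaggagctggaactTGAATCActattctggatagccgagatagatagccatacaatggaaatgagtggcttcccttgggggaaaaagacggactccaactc
Igfbp4, chr11:99040994-99041293, plus strand: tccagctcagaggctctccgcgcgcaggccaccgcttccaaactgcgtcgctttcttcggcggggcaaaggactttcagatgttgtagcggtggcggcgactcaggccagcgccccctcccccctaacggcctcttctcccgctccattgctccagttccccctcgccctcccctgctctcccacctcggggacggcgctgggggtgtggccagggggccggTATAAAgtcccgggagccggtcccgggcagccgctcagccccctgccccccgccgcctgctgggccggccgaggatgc
Igfbp5, chr1:72874816-72875115, minus strand: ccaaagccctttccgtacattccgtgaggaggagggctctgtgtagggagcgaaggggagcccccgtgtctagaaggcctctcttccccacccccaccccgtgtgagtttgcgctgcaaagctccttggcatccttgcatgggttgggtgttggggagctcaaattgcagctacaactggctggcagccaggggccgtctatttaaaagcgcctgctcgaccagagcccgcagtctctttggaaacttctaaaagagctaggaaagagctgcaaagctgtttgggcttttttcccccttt
Igfbp7, chr5:77407996-77408295, minus strand: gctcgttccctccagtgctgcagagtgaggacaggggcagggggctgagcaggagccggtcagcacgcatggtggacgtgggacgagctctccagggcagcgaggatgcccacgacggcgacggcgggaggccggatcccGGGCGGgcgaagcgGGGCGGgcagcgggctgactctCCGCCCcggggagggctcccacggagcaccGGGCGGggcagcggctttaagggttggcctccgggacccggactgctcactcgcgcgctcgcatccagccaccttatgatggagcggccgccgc
The *Igf1* window held 1 GAGGAA and 1 TGANTCA match, the *Igfbp4* window 1 TATAAA match, the *Igfbp7* window 4 GGGCGG matches, and the *Igfbp5* window none of the 4 motifs. Among all 32851 windows of this length, 28.3% held GAGGAA, 7.81% held TGANTCA, 13.6% held TATAAA and 35.7% held GGGCGG. The matches describe letters and not factor binding. In GENCODE vM21 (GRCm38), *Igf1* spans 78778 bases of chromosome 10 (87858265 to 87937042) with the antisense *Igf1os* inside it. The *Igf1* window shown lies inside this span, at a RefSeq start downstream of the first base of the gene. *Igfbp7* spans 58802 bases of chromosome 5 (77349240 to 77408041). *Igfbp5* (chromosome 1, 72857932 to 72874884) and *Igfbp2* are neighbors, 5457 bases apart. *Igfbp4* lies on chromosome 11 (99041244 to 99054392).

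*Igf1*, *Igf1r* and 5 binding proteins were measurable, whereas *Igf2* and *Igfbp2* were nearly absent. *Igf2*, the fetal ligand, had 58 UMIs in 51 cells of all libraries, most of them in stroma. *Igfbp2* had 5 UMIs in 5 cells. Among the others, totals ran from 4693 UMIs in 587 cells for *Igfbp3* to 196419 UMIs in 5867 cells for *Igfbp6*.

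**Figure D1:**
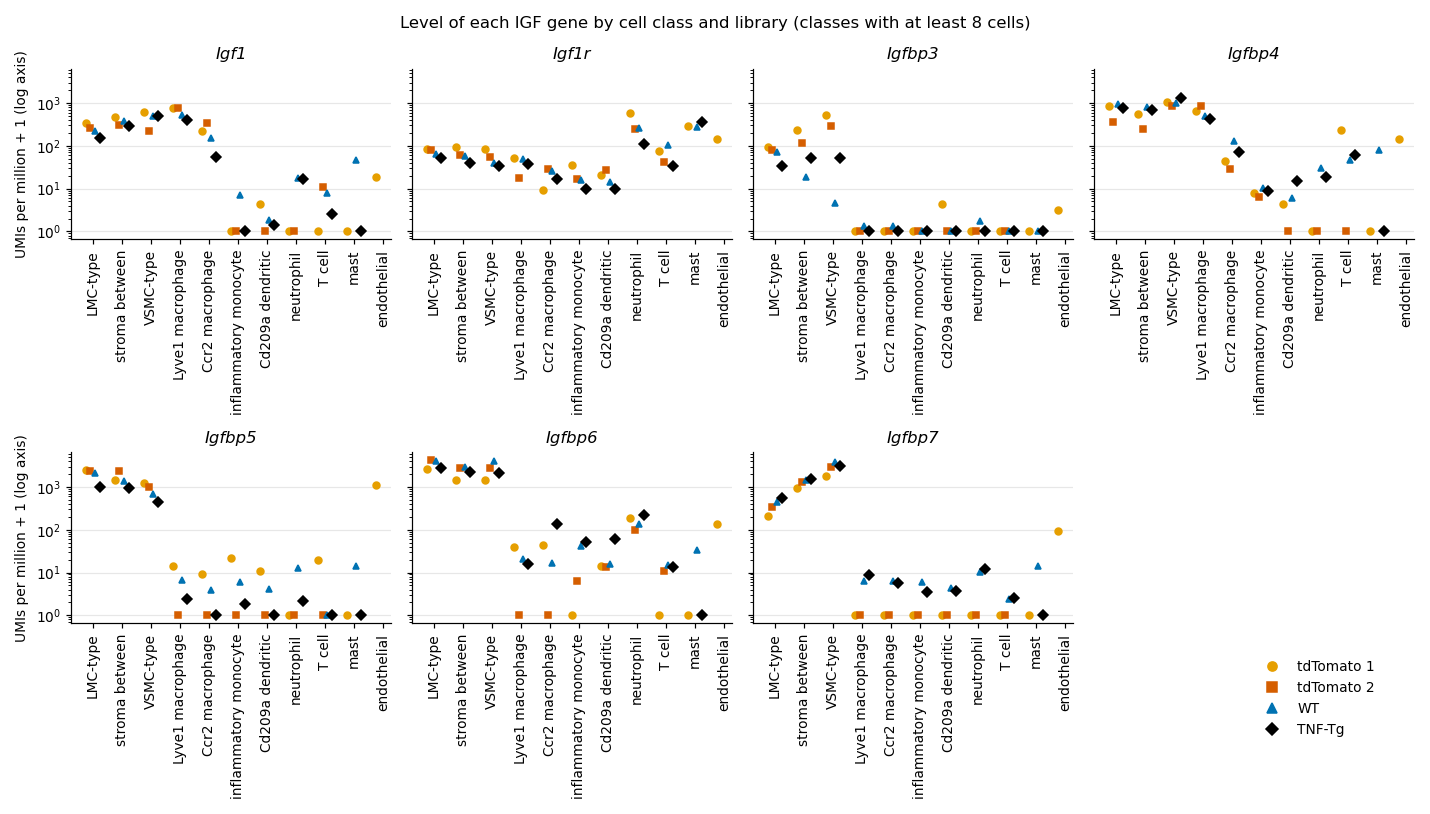
Level of 7 IGF genes as CPM plus 1 (log axis) in 11 cell classes (x axis), 1 symbol per library, classes with at least 8 cells. *Igf1* and *Igfbp4* are high in stroma and in *Lyve1* macrophages, whereas *Igfbp3*, *Igfbp5* and *Igfbp7* are high in stroma and at most 21.1 CPM in macrophages, monocytes and neutrophils. *Igfbp5* is not particular to stroma, since it stands at 1092 CPM in the 37 endothelial cells of tdTomato 1.

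The first comparison asked which cells hold the axis, stroma or macrophages. Stroma held nearly all transcripts of *Igfbp3*, *Igfbp5*, *Igfbp6* and *Igfbp7*: between 91.2% and 99.6% of the UMIs of each of these 4 genes lay in stromal cells in every library. *Igf1* was shared. Macrophages held 52.2% of its UMIs in WT, 24.6% in TNF-Tg, 29.4% in tdTomato 2 and 2.03% in tdTomato 1, and stroma held 44.5%, 69.3%, 69.4% and 96.0%. These shares moved with the share of macrophages among the cells, which was 31.98%, 12.4%, 12.8% and 1.86% in the same order and was set in part by the sorts. *Igfbp4* was shared in the same way, with 23.3% of its UMIs in macrophages in WT and 9.94% in TNF-Tg.

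**Figure D2:**
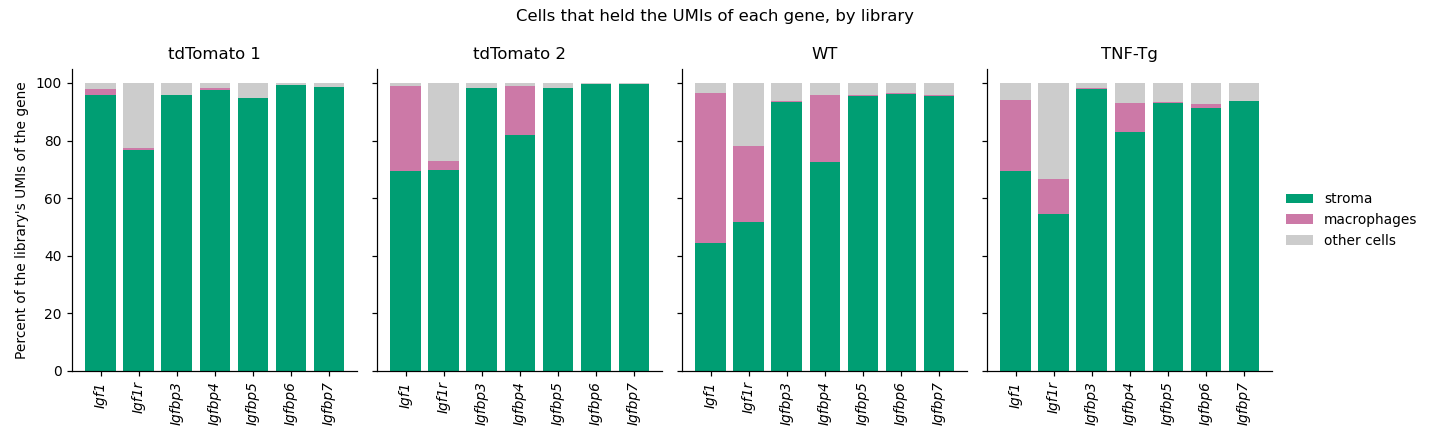
Percent of a library's UMIs of each gene (y axis) that lay in stromal cells, macrophages and other cells, 1 panel per library. Macrophages hold 52.2% of *Igf1* UMIs in WT and 2.03% in tdTomato 1, whereas *Igfbp5* is over 90% stromal in all panels.

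In CPM, 6 of the 7 genes tested were higher in stroma than in macrophages, and *Igf1* did not pass. The sums were LMC-type plus VSMC-type cells against *Lyve1* plus *Ccr2* macrophages, and cells between the gates of either lineage were left out. The test was edgeR's quasi-likelihood test on sums of each class per library with the library as a block, over 4 libraries and 12524 genes at an adjusted p under 0.01, and it called 25.3% of all genes higher in stroma, 18.1% higher in macrophages and 43.5% in either direction. The log2 difference of stroma over macrophages was 8.89 ± 0.36 (SE) for *Igfbp5*, 8.01 ± 0.35 for *Igfbp7*, 7.73 ± 0.36 for *Igfbp3* and 7.15 ± 0.48 for *Igfbp6*, with edgeR adjusted p between 1.9e-09 and 7.1e-08. In these macrophage classes levels were at most 0.364 CPM for *Igfbp3* and 7.70 CPM for *Igfbp7*, so the size of these differences depends on the test's prior count. For *Igfbp4* it was 1.27 ± 0.28 (edgeR adjusted p = 0.0018) and for *Igf1r* 0.96 ± 0.24 (edgeR adjusted p = 0.0049). *Igf1* leaned to macrophages by a log2 difference of -0.43 ± 0.23 that did not pass (edgeR adjusted p = 0.14). The median over the 7 genes was 7.15, beside 0.17 over all genes. Without the TNF-Tg library the calls on *Igf1r* and *Igfbp4* were lost (edgeR adjusted p = 0.027 and 0.053), and without tdTomato 1 that on *Igf1r* was lost (edgeR adjusted p = 0.019).

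Of the 19 other genes of the axis, 12 were tested, 10 were higher in stroma and none was higher in macrophages. They included the receptors *Igf2r* (log2 difference 5.62 ± 0.35), which clears IGF-2, and *Lrp1* (2.10 ± 0.20), the proteases *Htra1* (7.95 ± 0.34) and *Htra3* (7.42 ± 0.33), which cut binding proteins, and *Pappa* and *Pappa2*. The adaptors *Grb10* (8.45 ± 0.36), *Irs1* (6.21 ± 0.33) and *Irs2* (0.91 ± 0.22) and the growth hormone receptor *Ghr* (7.84 ± 0.38) completed the group. The *Irs2* call held in 8 of 13 alternatives and was lost without tdTomato 1 (edgeR adjusted p = 0.038) and without WT (edgeR adjusted p = 0.10). The *Pappa* call held in 6 of 9 and was lost without TNF-Tg (edgeR adjusted p = 0.011). The insulin receptor *Insr* (-0.70 ± 0.22) and the adaptor *Shc1* (0.96 ± 0.30) did not pass (edgeR adjusted p = 0.017 and 0.016).

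Among macrophages, *Igf1* and *Igfbp4* were higher in the *Lyve1* class than in the *Ccr2* class, and neither gene was confined to it. Macrophages between the gates stood at 417 CPM for *Igf1* and 417 for *Igfbp4* in WT, and at 86.5 and 131 in TNF-Tg. *Igf1* stood at 786, 764, 538 and 399.5 CPM in *Lyve1* macrophages and at 220, 337, 149 and 54.3 in *Ccr2* macrophages. *Igfbp4*, whose protein holds IGF-1 until a protease cuts it, stood at 668, 850, 486 and 433 in *Lyve1* macrophages and at 42.3, 28.1, 132 and 71.98 in *Ccr2* macrophages. Each of the 4 libraries therefore had more of both genes in the *Lyve1* class, although tdTomato 1 and tdTomato 2 held only 9 and 8 *Ccr2* macrophages.

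The test between these classes could use only WT and TNF-Tg, which left 1 residual degree of freedom, and its p-values therefore rest on the spread shared by all genes. It called 8.43% of 9581 genes higher in *Lyve1* macrophages, 8.35% higher in *Ccr2* macrophages, 16.8% in either direction and, of 5 IGF genes tested, 3 higher in the former and 1 in the latter. *Igf1* was higher in *Lyve1* macrophages by 2.10 ± 0.20 on the log2 scale, a 4.29-fold difference (edgeR adjusted p = 1.5e-23; DESeq2 adjusted p = 2.4e-12), and *Igfbp4* by 2.01 ± 0.20, or 4.03-fold (edgeR adjusted p = 3.6e-22; DESeq2 adjusted p = 4.0e-12). *Igf1r* was higher by 0.91 ± 0.27 (edgeR adjusted p = 0.0052), a call that DESeq2 did not make (adjusted p = 0.25). Of the other axis genes 4 were tested. *Insr* was higher in *Lyve1* macrophages (0.88 ± 0.28, edgeR adjusted p = 0.0082) and *Lrp1*, an endocytic receptor, in *Ccr2* macrophages (-0.81 ± 0.18, edgeR adjusted p = 0.00012). The *Insr* call held in 3 of 9 alternatives and was lost with DESeq2 (adjusted p = 0.30), and the *Lrp1* call held in 5 of 9, with adjusted p up to 0.21.

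The *Igf1* of *Lyve1* macrophages was spread over most cells. In WT 96.0% and in TNF-Tg 90.8% of the class had at least 1 UMI of *Igf1*. After each cell was thinned to 3000 UMIs the shares were 80.0%, 86.7%, 74.3% and 66.8% over the 4 libraries. The tenth of cells with the most held 21.7% to 29.2% of the thinned UMIs. In tdTomato 1 and tdTomato 2 the class held only 14 and 50 cells, before those under 3000 UMIs were left out, so their values rest on few cells. Neutrophils, which should lack *Igf1* and show the level of free RNA, had a thinned share of 0.847% in WT and 1.55% in TNF-Tg, with median depths of 3538 and 3185 UMIs against 12436 and 10232.5 in *Lyve1* macrophages. In *Ccr2* macrophages the thinned share of *Igf1* was 31.7% (interval 25.4 to 38.6) in WT and 7.27% (2.02 to 17.6) in TNF-Tg.

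*Igfbp6* departed from the other stromal binding proteins in macrophages and neutrophils. In basophils it was *Igfbp7* that departed. The 63 basophils of TNF-Tg stood at 165 CPM for *Igfbp7*, 22.0 for *Igfbp6* and 3.67 for *Igfbp5*, and the source of this was not tested. The level of *Igfbp6* was 19.7 CPM in WT and 15.0 in TNF-Tg for *Lyve1* macrophages, but 15.6 and 132 for *Ccr2* macrophages and 134 and 220 for neutrophils. The test placed *Igfbp6* higher in *Ccr2* macrophages by 1.48 ± 0.26 on the log2 scale (edgeR adjusted p = 3.4e-07), a call that DESeq2 did not make (adjusted p = 0.70) and that the TNF-Tg library alone carried: within WT the log2 of *Lyve1* over *Ccr2* was 0.33 (-0.13 to 0.82) and within TNF-Tg it was -3.14 (-3.69 to -2.61). In TNF-Tg the thinned share of cells with *Igfbp6* was 23.6% (13.2 to 37.0) in *Ccr2* macrophages, 4.48% (2.17 to 8.09) in *Lyve1* macrophages and 20.9% (14.3 to 29.0) in neutrophils. The interval in *Ccr2* macrophages lay above that of *Lyve1* macrophages and overlapped that of neutrophils. In TNF-Tg *Ccr2* macrophages 112 UMIs of *Igfbp6* stood beside 0 of *Igfbp5*, whereas stroma of that library held 33393 and 11230. The part of free stromal RNA in the *Igfbp6* result was not tested further.

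*Igf1r*, the receptor itself, was measured in every lineage. It stood at 84.2, 78.8, 63.95 and 52.4 CPM in LMC-type stroma, at 83.7, 54.0, 38.4 and 33.5 in VSMC-type stroma, and at 52.4, 17.1, 48.8 and 37.0 in *Lyve1* macrophages. Neutrophils were above all of these in every library, at 586, 243, 253 and 111. In tdTomato 1 and tdTomato 2 the neutrophil levels came from only 19 and 17 UMIs, and those of *Lyve1* macrophages from 4 and 3. Mast cells were higher than stroma as well, at 285, 269 and 369 in tdTomato 1, WT and TNF-Tg, although from only 5, 41 and 10 UMIs. After thinning, UMIs of *Igf1r* were found in 49.2% of WT neutrophils (236 cells) and 28.7% of TNF-Tg neutrophils (129 cells), beside 17.0% and 15.7% of LMC-type cells. This order between lineages is a description, since neutrophils were not part of a test.

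The second comparison set LMC-type against VSMC-type stroma within each library. *Igfbp7* and *Igfbp5* separated the classes in opposite directions, *Igf1* and *Igfbp4* leaned to VSMC-type stroma, and *Igf1r*, *Igfbp3* and *Igfbp6* did not pass. Of 11463 genes tested, 6.61% were called higher in LMC-type and 8.21% higher in VSMC-type stroma (14.8% in either direction), and among the 7 IGF genes tested the counts were 1 and 3. The median log2 difference of LMC-type over VSMC-type was -0.71 over the 7 genes, beside -0.02 over all genes.

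*Igfbp7*, the vessel wall protein, was the strongest of them. Its level was 205, 336, 445 and 543 CPM in LMC-type and 1808, 2947, 3903 and 3115 in VSMC-type stroma, and the groups did not overlap. The log2 difference was -3.08 ± 0.15, or 8.46-fold higher in VSMC-type stroma (edgeR adjusted p = 6.0e-09), and it held within each library at between 5.74-fold in TNF-Tg and 8.80-fold in tdTomato 1. In VSMC-type stroma 94.9% to 100% of thinned cells had a UMI of *Igfbp7*, against 35.9%, 43.1%, 61.2% and 70.3% in LMC-type stroma.

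*Igfbp5* ran the other way. It stood at 2526, 2331, 2076 and 988 CPM in LMC-type and at 1229, 976, 669 and 455 in VSMC-type stroma. The classes overlapped between libraries, because the TNF-Tg LMC-type level lay below the tdTomato 1 VSMC-type level, but within every library the LMC-type level was higher, by 2.05-fold to 3.101-fold. The log2 difference was 1.16 ± 0.14 (edgeR adjusted p = 3.3e-05), and it passed without each library in turn.

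*Igf1* was higher in VSMC-type stroma in 3 of 4 libraries. It stood at 337, 266, 218 and 153 CPM in LMC-type and at 615, 226, 486 and 489 in VSMC-type stroma, and tdTomato 2 gave no difference beyond counting error (log2 0.24, -0.12 to 0.61). The log2 difference was -1.04 ± 0.24 (edgeR adjusted p = 0.0047), and it did not pass without WT (adjusted p = 0.020) or without TNF-Tg (-0.68, adjusted p = 0.057).

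*Igfbp4* was higher in VSMC-type stroma in all 4 libraries, at 1070, 876, 1009 and 1345 CPM against 868, 368, 926 and 756 in LMC-type stroma. The difference within a library ran from 1.09-fold in WT to 2.38-fold in tdTomato 2. The log2 difference was -0.71 ± 0.17 (edgeR adjusted p = 0.0078), and it did not pass without tdTomato 2 (-0.54, adjusted p = 0.074) or without TNF-Tg (-0.54, adjusted p = 0.098).

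*Igfbp6* was high in both classes, at 2688, 4222, 3992 and 2733 CPM in LMC-type and 1474, 2774, 4094 and 2076 in VSMC-type stroma. It leaned to LMC-type stroma in 3 libraries and not in WT, with a log2 difference of 0.35 ± 0.16 (edgeR adjusted p = 0.12). *Igf1r* leaned the same way by 0.37 ± 0.14 (edgeR adjusted p = 0.081). Neither passed.

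*Igfbp3* was the most uneven gene. It stood at 91.3, 80.7, 72.1 and 33.7 CPM in LMC-type and at 513, 287, 3.73 and 52.2 in VSMC-type stroma. The sorted tdTomato libraries had 5.62-fold and 3.56-fold more in VSMC-type stroma, WT had 19.3-fold more in LMC-type stroma, and TNF-Tg had 1.55-fold more in VSMC-type stroma. The pooled log2 difference was accordingly -0.72 ± 0.71 (edgeR adjusted p = 0.53), became 0.22 without tdTomato 1 (adjusted p = 0.86) and -1.79 without WT (adjusted p = 7.9e-05). The share of cells with the gene was uneven as well. UMIs were found in 14.5%, 8.42%, 9.94% and 6.01% of LMC-type cells, and in 40.6%, 42.9%, 2.40% and 10.5% of VSMC-type cells. After thinning, a single WT LMC-type cell reached 27 of its 3000 UMIs.

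**Figure D3:**
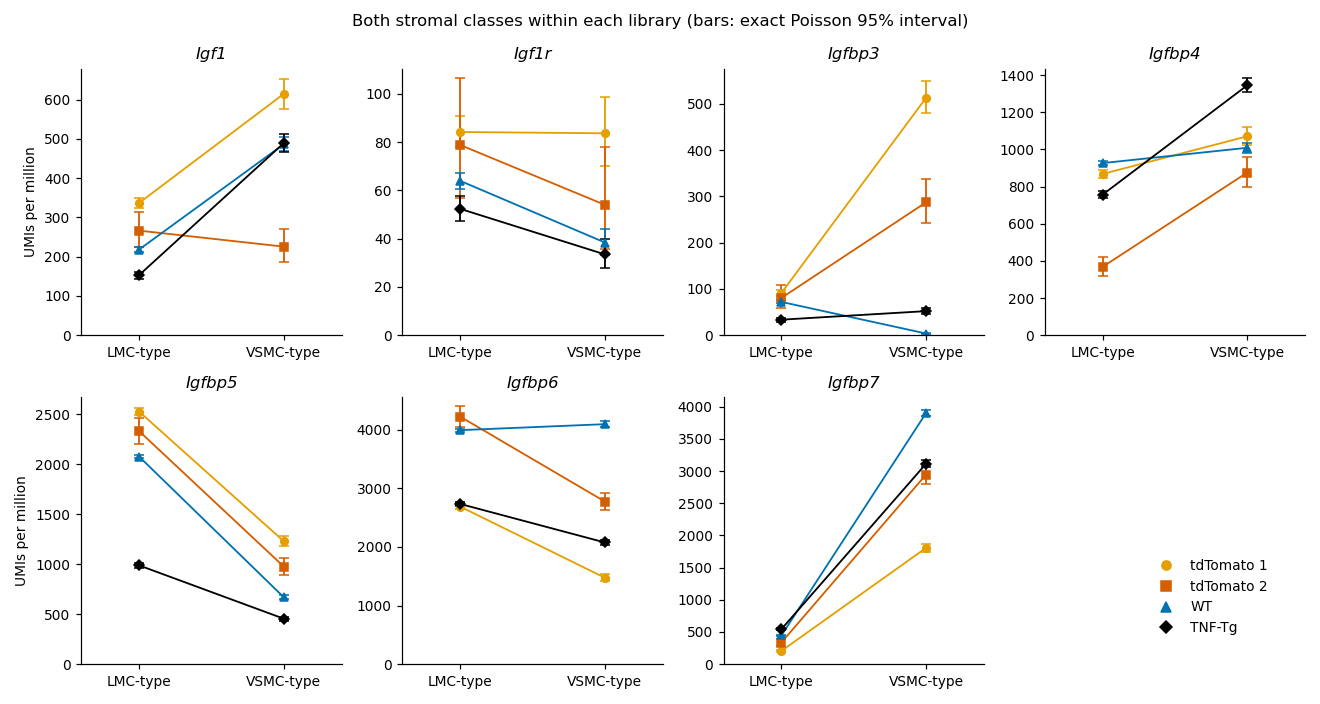
Level of 7 IGF genes in LMC-type and VSMC-type stroma (x axis) as CPM (y axis), 1 line per library with exact Poisson 95% intervals. All 4 lines rise to VSMC-type stroma for *Igfbp7* and *Igfbp4* and fall for *Igfbp5*, whereas the lines of *Igfbp3* cross.

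Levels were also followed along the ratio that set the classes. All gated stromal cells, those between the classes included, were put in 5 bins by the log2 ratio of the LMC-type to the VSMC-type marker list, with limits at -3, -1, 1 and 3. The limits at -1 and 1 are those of the gates, so the bins beyond them on each side together hold nearly the same cells as a class. The VSMC-most and LMC-most bins are parts of a class, in WT 303 of 542 and 992 of 1448 cells. The order of the bins therefore repeats the 2-class comparison in finer steps and is not separate support for it. *Igfbp7* fell at every step from the VSMC-most to the LMC-most bin in all 4 libraries, from 2393, 3755, 4764 and 3645 to 154, 161, 354 and 447 CPM. *Igfbp5* was higher in the LMC-most than in the VSMC-most bin in all 4 libraries, from 1026, 491, 531 and 359 to 2982, 2450, 2141 and 1084. *Igf1* fell at every step in WT, from 528 to 188, and in TNF-Tg, from 625 to 124, but did not in the tdTomato libraries. *Igfbp4* was lowest in the middle or LMC-side bin in each library and rose again in the LMC-most bin, a shape that the 2-class comparison does not show.

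**Figure D4:**
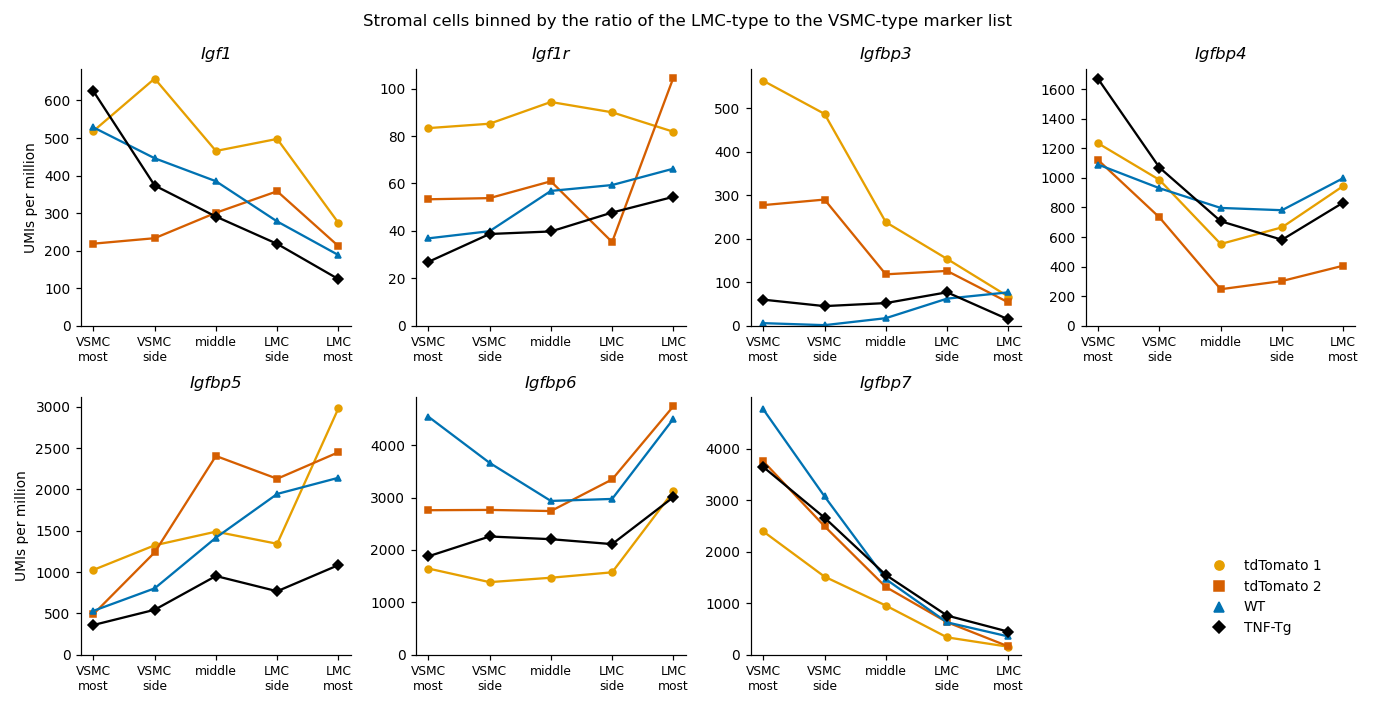
CPM (y axis) of 7 IGF genes over 5 bins of stromal cells (x axis), ordered by the ratio of the marker lists, 1 line per library. *Igfbp7* falls in every line, whereas *Igfbp4* has its lowest point in the middle or LMC-side bin.

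Of the 19 other axis genes, 13 were tested between these classes, none was higher in LMC-type stroma and 3 were higher in VSMC-type stroma, beside 8.21% of all genes. *Ghr*, the receptor through which growth hormone raises *Igf1*, stood at 112, 50.7, 86.4 and 74.2 CPM in LMC-type and 167, 84.9, 198 and 111 in VSMC-type stroma (log2 difference -0.90 ± 0.14, edgeR adjusted p = 0.00026). *Pappa*, the protease that cuts IGFBP-4, stood at 0.712, 0, 0 and 0 in LMC-type and 16.4, 13.5, 2.98 and 1.02 in VSMC-type stroma (edgeR adjusted p = 2.7e-05). *Stc1*, which encodes an inhibitor of that protease, stood at 0.119, 0, 0 and 0 against 6.67, 5.79, 0 and 0.767 (edgeR adjusted p = 0.0022). Both are rare transcripts, and no fold is given for them.

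The third comparison set TNF-Tg over WT within single classes, and not every class was compared. With 1 library a genotype there is no test, and a gene is called where the levels are at least 2-fold apart with at least 30 UMIs in the 2 libraries together. In LMC-type stroma 2 of 7 IGF genes with enough UMIs were called lower in TNF-Tg and none higher, beside 5.55% and 3.96% of 11588 genes. In VSMC-type stroma 1 of 7 was called higher and none lower, beside 3.73% and 12.3% of 10096 genes. The median log2 ratio over the IGF genes was -0.51 in LMC-type and -0.20 in VSMC-type stroma, beside -0.04 and -0.21 over all genes.

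*Igfbp5* was lower in TNF-Tg in both stromal classes. In LMC-type stroma it fell from 2076 to 988 CPM (2.10-fold, log2 -1.07, -1.11 to -1.04), and both tdTomato libraries lay above WT. In VSMC-type stroma it was 669 in WT and 455 in TNF-Tg (log2 -0.56, -0.64 to -0.48), short of 2-fold and again below the other 3 libraries. In LMC-type cells thinned to 3000 UMIs, 77.0% (74.7 to 79.2) had the transcript in WT and 61.4% (57.2 to 65.6) in TNF-Tg.

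*Igfbp3* was called in opposite directions. In LMC-type stroma it fell from 72.1 to 33.7 CPM (log2 -1.10, -1.29 to -0.91), below all other libraries. Over the bins of the marker ratio, the LMC-most cells stood at 76.9 CPM in WT and 14.6 in TNF-Tg, whereas the LMC-side cells stood at 62.4 and 77.0. In VSMC-type stroma it was 14.0-fold higher in TNF-Tg (log2 3.81, 3.14 to 4.55), but the TNF-Tg level of 52.2 lay between the WT level of 3.73, which came from 20 UMIs, and those of 287 and 513 in the tdTomato libraries.

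*Igf1* fell short of 2-fold in LMC-type stroma (log2 -0.51, -0.61 to -0.42) and in *Lyve1* macrophages (-0.43, -0.52 to -0.34), where TNF-Tg was the lowest of the 4 libraries in both, and did not differ beyond counting error in VSMC-type stroma (0.01, -0.08 to 0.09). *Igfbp6* was lower in TNF-Tg by a log2 of 0.98 in VSMC-type and 0.55 in LMC-type stroma, and both levels lay within the range of the other libraries. *Igfbp7* in LMC-type stroma (0.29, 0.23 to 0.34) and *Igfbp4* in VSMC-type stroma (0.41, 0.36 to 0.47) were the highest of the 4 libraries without reaching 2-fold.

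Of the 11 calls over the classes compared, 7 lay in leukocytes. Macrophages between the gates (199 cells in WT and 121 in TNF-Tg) were not compared, so the 11 calls leave them out. Their levels in WT and TNF-Tg were 417 and 86.5 CPM for *Igf1*, 417 and 131 for *Igfbp4*, and 19.4 and 189 for *Igfbp6*. In *Ccr2* macrophages *Igf1* was lower in TNF-Tg (log2 -1.46, -1.93 to -1.01, 409 and 46 UMIs) and *Igfbp6* higher (3.08, 2.56 to 3.62, 43 and 112 UMIs), 2 of 4 IGF genes with enough UMIs, beside 8.98% of genes lower and 4.44% higher. Over the same cells the *Ccr2* macrophage marker list summed to 51824 CPM in WT and 21279 in TNF-Tg, so that the class itself differed between the libraries, and the part of this in the result was not tested. In *Lyve1* macrophages 1 of 6 was called, *Igfbp5*, at 92 and 4 UMIs, beside 6.01% of genes lower and 4.19% higher. Its WT level there, 5.53 CPM, lay below the 11.7 CPM (16 UMIs) of WT neutrophils, and TNF-Tg neutrophils held 1 UMI. The part of free stromal RNA in this call was not tested. *Igf1r* was lower in TNF-Tg neutrophils (-1.20, -1.54 to -0.87) and T cells (-1.68, -2.46 to -0.97), beside 6.43% of genes lower and 7.86% higher in neutrophils and 6.58% and 1.77% in T cells. In *Cd209a* dendritic cells *Igfbp4* (18 and 31 UMIs) and *Igfbp6* (52 and 136 UMIs) were called higher, 2 of 3, beside 4.60% of genes higher and 8.48% lower. With clusters in place of gates both turned direction, to log2 ratios of -0.77 for *Igfbp4* and -0.59 for *Igfbp6*. In stroma between the gates 1 of 7 was called, *Igfbp3*, which was higher (1.57, 1.06 to 2.09), beside 3.69% higher and 8.23% lower. This value changed sign with stricter gates. None of 3 IGF genes was called in inflammatory monocytes, beside 5.68% higher and 4.38% lower. In mast cells 1 IGF gene had enough UMIs, and it was not called.

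**Figure D5:**
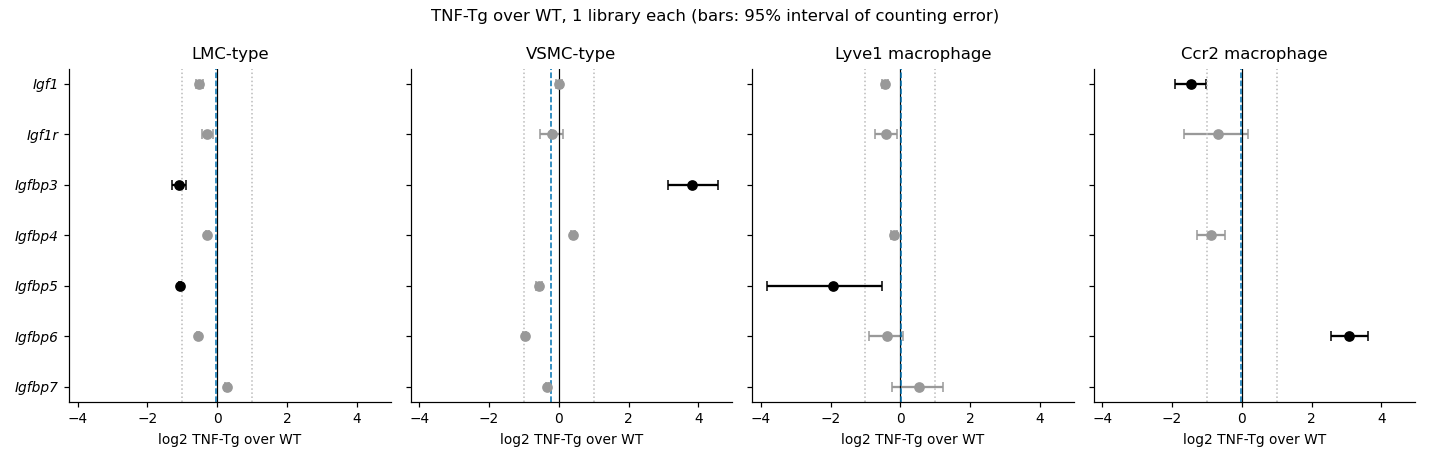
Log2 of TNF-Tg over WT (x axis) for the IGF genes with at least 30 UMIs (y axis) in 4 classes, with 95% intervals of counting error; black points are at least 2-fold apart, dotted lines mark 2-fold and the dashed line is the median of all genes. *Igfbp3* lies at -1.10 in LMC-type and 3.81 in VSMC-type stroma.

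Of the other axis genes, *Irs2*, an adaptor of the insulin and IGF-1 receptors, was called lower in TNF-Tg in LMC-type stroma (29.4 and 11.3 CPM, log2 -1.38, -1.72 to -1.05) and *Pappa2* higher (2.35 and 6.05), 2 of 11 with enough UMIs. Over all genes in this class 5.55% were called lower and 3.96% higher. In tdTomato 1 the LMC-type levels were 137 CPM for *Irs2* and 7.12 for *Pappa2*. The TNF-Tg level of *Pappa2* therefore lay within the range of the other libraries. In VSMC-type stroma *Igf2r* (51.8 and 23.0) and *Lrp1* (969 and 481) were called lower, 2 of 10, beside 12.3% of genes lower and 3.73% higher. The median log2 ratio over all genes of that class was itself -0.21, and both calls were made without centring on it. Centred on that median, both ratios fall short of 2-fold. *Irs2* was also called lower in 5 further classes: stroma between the gates, *Ccr2* macrophages, neutrophils, *Cd209a* dendritic cells and inflammatory monocytes. The shares over all genes in these classes are those given above. In *Lyve1* macrophages it was not called (11.9 and 11.7). In *Ccr2* macrophages *Insr* was called lower as well (24.7 and 10.6), and in *Cd209a* dendritic cells *Lrp1* (120 and 50.2).

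Genes whose levels ran most like each IGF gene were ranked by Pearson's r of log2 levels over 36 sums of a class in 1 library, among 12695 genes. The sums share libraries and lineages, so r is a description. *Igf1* was most like *Gas6* (r = 0.96), *Slco2b1* (0.94) and *Pmp22* (0.94), and *Igfbp4* was most like *Cnrip1* (0.94), *Igf1* itself (0.93) and *Slco2b1* (0.93). *Igfbp5* ran with *Plpp3* (0.98), *Tshz2* (0.98) and *Col5a2* (0.98), *Igfbp7* with *Tspan11* (0.96), *C1qtnf2* (0.95) and *Nsg1* (0.95), and *Igfbp6* with the collagen gene *Col3a1* (0.93), which is itself a stromal marker here, *Olfml2b* (0.92) and *Mfap2* (0.92). *Igfbp3* ran with *Il17d* (0.95) and *Fst* (0.95). *Igf1r* had the loosest partners, *Sik3* (0.85), *Malat1* (0.81) and *Rnf11* (0.80), and its r with *Igf1* was 0.23.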

How the data were processed

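Single-cell libraries of mouse lymphatic vessels and veins were re-analysed. The deposited values are raw UMI counts for each gene of each cell, produced by the authors with Cell Ranger (3.1.0 in the matrix header of tdTomato 1 and 6.0.1 in the others; the submitters' processing notes name 3.1.0, Seurat 4.0.3 and mm10) without normalization, kept to barcodes called as cells. The gene lists held 31053 genes in tdTomato 1 and 32287 in the others, and the 30406 shared were used. The IGF genes, gene lists and marker lists were chosen with earlier results of these data known.

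Cells were gated on summed markers per 10000 UMIs. Stroma had at least 64 stromal and under 16 leukocyte UMIs, and was split by a 2-fold ratio of the LMC-type and VSMC-type lists (log2 of at least 1 or at most -1, with at least 8 UMIs of the higher list). Macrophages had at least 32 UMIs of their list. *Lyve1* macrophages had at least 32 of the *Lyve1* list, and *Ccr2* macrophages under 16 of it and at least 64 of the *Ccr2* list. Doublets called by Scrublet (scanpy 1.11.5; 0.399% to 2.48% of cells) were kept. Clusters of the integrated libraries (Seurat 5.3.0, 22 clusters, made without the IGF genes) were an alternative to the gates.

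UMIs were summed by class and library. Class contrasts used edgeR 4.0.16 (TMM, filterByExpr, Benjamini-Hochberg adjustment over all genes, threshold 0.01) with the library as a block. Both classes of a library come from the same pool of 3 mice, which pairs them. A check on simulated sums required recovery of the largest changes only, and required none for *Lyve1* against *Ccr2* macrophages. The simulated libraries differed in depth alone, so the check did not exercise the block. Cells and classes of a library are not replicates. In the contrasts over 4 libraries the p-values measure the spread between libraries of several conditions. Its estimate had 3 residual degrees of freedom. A further 10.9 for LMC-type against VSMC-type stroma and 8.69 for stroma against macrophages were drawn from all genes. For *Lyve1* against *Ccr2* macrophages, with 1 residual degree of freedom, the p-values rest on the spread shared by all genes. DESeq2 1.42.0, its size factors, no low-count filter, no block, other gates, doublets or mitochondria-rich cells left out and each library left out were alternatives. Levels have exact Poisson intervals, shares of cells exact Clopper-Pearson intervals, and ratios of 2 libraries exact conditional binomial intervals (95%), for counting error only. Named genes were the 9 IGF genes, the 19 other axis genes that passed or were called, and the 3 genes most like each IGF gene with at least 100 UMIs, over sums of at least 20 cells with a pseudocount of 1 CPM; 1 of these is not reported here. Promoters are from RefSeq and positions from GENCODE vM21.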

Additional observations from a re-analysis of the deposited data

Results flagged for a closer look

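*Igfbp3* gave opposite differences under the same contrast, which were not tested because each side is 1 library. The log2 of TNF-Tg over WT was -1.10 in LMC-type stroma, 3.81 in VSMC-type stroma and 1.57 in the stroma between the gates. The value between the gates changed sign with stricter gates, and levels there ran from 17.5 to 237 CPM over the 4 libraries. The log2 of LMC-type over VSMC-type stroma was 4.27 in WT, whereas it was -2.49 and -1.83 in the tdTomato libraries. The WT VSMC-type level came from 20 UMIs in 542 cells. Genotype, sort and pool of mice differed between the tdTomato and WT libraries, and the sex of the tdTomato mice is not stated. The part of each was not tested.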

How the results depend on the processing

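Without the replicate block of the library, the counts of all genes called fell from 1699 to 280 for LMC-type against VSMC-type stroma (IGF genes from 4 to 1), and from 1608 to 108 for *Lyve1* against *Ccr2* macrophages (from 4 to 0, with 1591 of 9581 genes at an unadjusted p under 0.05). For stroma against macrophages the count of IGF genes called stayed within 1.5 times the 6 reported under all alternatives. Leaving out each library in turn gave 981 to 1593 genes for LMC-type against VSMC-type stroma (2 to 4 IGF genes) and 3606 to 5564 for stroma against macrophages (4 to 6); it could not be run for the macrophage classes, since 1 library leaves no residual degrees of freedom. For *Lyve1* against *Ccr2* macrophages, DESeq2 called 647 genes (2 IGF genes), stricter gates 693 (2) and clusters in place of gates 813. *Igfbp3* in LMC-type over VSMC-type stroma ran from -1.79 without WT to 0.22 without tdTomato 1, a reversal. *Igfbp7* in *Lyve1* over *Ccr2* macrophages, which did not pass, reversed to -1.09 with stricter gates. TNF-Tg over WT values that reversed were *Igfbp4* (-0.77) and *Igfbp6* (-0.59) in *Cd209a* dendritic cells with clusters in place of gates, and *Igfbp3* in stroma between the gates (-0.24) with stricter gates. The cause of these changes was not tested. The 11 TNF-Tg over WT calls among 40 gene and class pairs, in the 8 classes with a call, stayed within 1.5 times that count under all alternatives. Inflammatory monocytes (3 pairs) and mast cells (1 pair) had no call and are not among the 40. The shares over all genes are given by class above, except for mast cells. After thinning, the LMC-type share was above the VSMC-type share in 13 of 28 gene and library pairs at 3000 UMIs and in 14 at 1500. In *Ccr2* macrophages, T cells and neutrophils, levels rest on few UMIs, which limits the precision there.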
